A study of Mus musculus with 8 samples.

Results

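The contractile apparatus of smooth muscle was followed in 8 mouse colons after chemically induced inflammation, through 33 genes picked by name from the 53465 genes of the deposited table, from the actins and myosin that make force to the calcium channels, receptors and regulators that govern it. All 33 had a mean of at least 3 on the rlog scale in each genotype, the level required for testing over the 8 libraries, so none was lost to the filter. An rlog value is a regularised log2 read count, scaled for library size and drawn toward the mean of its gene, so that 1 unit is a factor of 2 except where the shrinkage makes it smaller. The mice were 4 Arg1 ko animals, in which a conditional deletion removes arginase 1 from a cell type that the labels do not name, and 4 wild-type littermates with intact Arg1. Both groups were on the B6 background, were 7 to 12 weeks old, were matched for age and sex, and received 2.5% dextran sulfate sodium (DSS), which injures the colon epithelium, in their water for a week, with ordinary water from then to day 10. Littermates had been split up before the experiment. No mice without DSS are part of these libraries, and the sources used here do not name the driver of the deletion. The tissue is labelled colon, whereas the protocol speaks of epithelial aggregates shaken off with 30 mM EDTA and cleaned by sedimentation.

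Smooth muscle shortens when thick filaments of the myosin heavy chain Myh11 pull on thin filaments of the actins Acta2 and Actg2. Calcium that enters through voltage-gated channels or leaves internal stores binds calmodulin, which turns on myosin light chain kinase (Mylk), and a phosphatase with a targeting subunit of the Ppp1r12 family reverses the switch. In the gut wall, acetylcholine from enteric neurons starts this sequence through muscarinic receptors, and many contractile genes are under the control of serum response factor and its partner myocardin (Myocd), which act at a short DNA element called the CArG box.

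Depth cannot be read from rlog values. The deleted gene was read first: Arg1 (chromosome 10, 24915221 to 24927484, GRCm38) stood at 5.06, 4.87, 5.15 and 5.19 in Arg1 ko libraries 1 to 4, against 5.59, 5.57, 5.02 and 5.58 in wild-type libraries 1 to 4. Wild type 3, at 5.02, fell between ko values, whereas wild type 1, 2 and 4 exceeded every ko library. Arg1 was a weak gene here, with a mean rlog of 5.25 at percentile 16.8 of the tested genes. Its difference of -0.37 did not pass the test (limma adjusted p = 0.522). At this level, and with a deletion in an unnamed cell type, Arg1 cannot decide the genotype of a single library. Whether the label of wild type 3 is right was not tested. Over the 16380 genes tested, limma called none at an adjusted p under 0.05 with 8 libraries, 1490 had an unadjusted p under 0.05 by the same test, and 1012 of 16371 passed without wild type 3. The sample numbers in the labels run in separate blocks for Arg1 ko and wild type. If these numbers follow an order of handling, that order and the genotype cannot be told apart.

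Promoter sequence is shown first, because the CArG box, CC and GG around a core of A or T, is the element through which Myocd is known to act. RefSeq promoter windows on GRCm38.p6, from 250 bases before to 50 after the annotated start, were matched by symbol for 29 of the 33 genes. The other 4, Actg2, Myh11, Myocd and Tagln, had no window and were not searched. A CArG box spelled as its consensus was in the windows of 2 of the 29, Myl9 and Ldb3, and in 1.6% of the 12015 tested genes with a window. With 1 base of its A/T core allowed to differ it was in 7 of the 29 (also Acta2, Jph2, Cacna1c, Synm and Pdlim3) and in 10.7% of those tested genes. The element reads alike on both strands, so a match counts for both. A match describes the letters and does not show that a factor binds. The 3 windows below were chosen because Acta2 is widely used to mark smooth muscle and because Myl9 and Ldb3 hold the consensus. Each is written 5′ to 3′ along the gene's own strand with CArG boxes in capitals. Acta2 lies at chr19:34255324-34255623 on the minus strand, with 2 boxes that each depart by 1 core base. Myl9 lies at chr2:156775214-156775513 on the plus strand, with 1 consensus box and 1 that departs by 1 core base. Ldb3 lies at chr14:34588632-34588931 on the minus strand, with 1 consensus box.
Acta2: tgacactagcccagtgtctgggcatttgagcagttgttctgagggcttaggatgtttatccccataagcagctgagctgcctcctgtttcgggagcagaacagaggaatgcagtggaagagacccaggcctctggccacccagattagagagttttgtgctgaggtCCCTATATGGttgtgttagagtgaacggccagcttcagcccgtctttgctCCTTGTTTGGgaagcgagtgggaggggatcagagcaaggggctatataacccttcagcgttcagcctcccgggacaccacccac
Myl9: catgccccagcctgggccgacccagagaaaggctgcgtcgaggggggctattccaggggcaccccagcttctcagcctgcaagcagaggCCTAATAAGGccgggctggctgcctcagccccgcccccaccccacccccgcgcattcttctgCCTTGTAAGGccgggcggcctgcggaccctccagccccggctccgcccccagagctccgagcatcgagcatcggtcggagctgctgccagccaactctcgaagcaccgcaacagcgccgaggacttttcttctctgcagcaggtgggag
Ldb3: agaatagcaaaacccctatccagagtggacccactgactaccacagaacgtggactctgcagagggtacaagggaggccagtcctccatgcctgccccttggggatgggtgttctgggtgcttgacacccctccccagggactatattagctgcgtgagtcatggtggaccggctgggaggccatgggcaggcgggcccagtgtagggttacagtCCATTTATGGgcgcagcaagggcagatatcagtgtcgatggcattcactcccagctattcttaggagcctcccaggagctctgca

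Smooth muscle RNA was abundant in these libraries. Of the 33 genes, 17 lay above the 90th percentile of mean rlog among all tested genes, and 8 (Myh11, Acta2, Tpm1, Flna, Tagln, Tpm2, Myl9 and Mylk) lay in the top 1%. Dividing by the longest annotated transcript allows genes to be compared with each other as far as that length holds. On this log2 level per kilobase Myl9 stood at 13.74, Acta2 at 13.73, Tagln at 13.55, Actg2 at 13.19 and Myh11 at 12.11. Among epithelial markers, the keratin Krt8 stood at 15.14 and the adhesion molecule Epcam at 14.32 on the same scale. The mucin Muc2 stood at 15.60 with an annotated length of 2926 bases, and a longer true transcript would lower that level. The fibroblast markers Sparc, at 11.10, and Dcn, at 10.95, lay below these abundant muscle genes. Over whole lists the median level was 8.81 for the 33 genes, 8.61 for the fibroblast markers and 13.35 for the epithelial markers. The regulator Myocd (4.34), the calcium channel Cacna1c (5.25) and the muscarinic receptors Chrm2 (5.68) and Chrm3 (4.27) were among the low members, and Actn2 (2.22), a cross-linker of the striated muscle Z-disc, was the lowest. The defining markers Acta2, Actg2, Myh11, Tagln, Des and Cnn1 each lay above the 95th percentile, while Myocd, the other defining marker given by library, lay at percentile 28.7, in libraries whose protocol describes purified epithelial aggregates. In bulk RNA, fewer muscle cells and less RNA per muscle cell cannot be told apart.

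**Figure D1:**
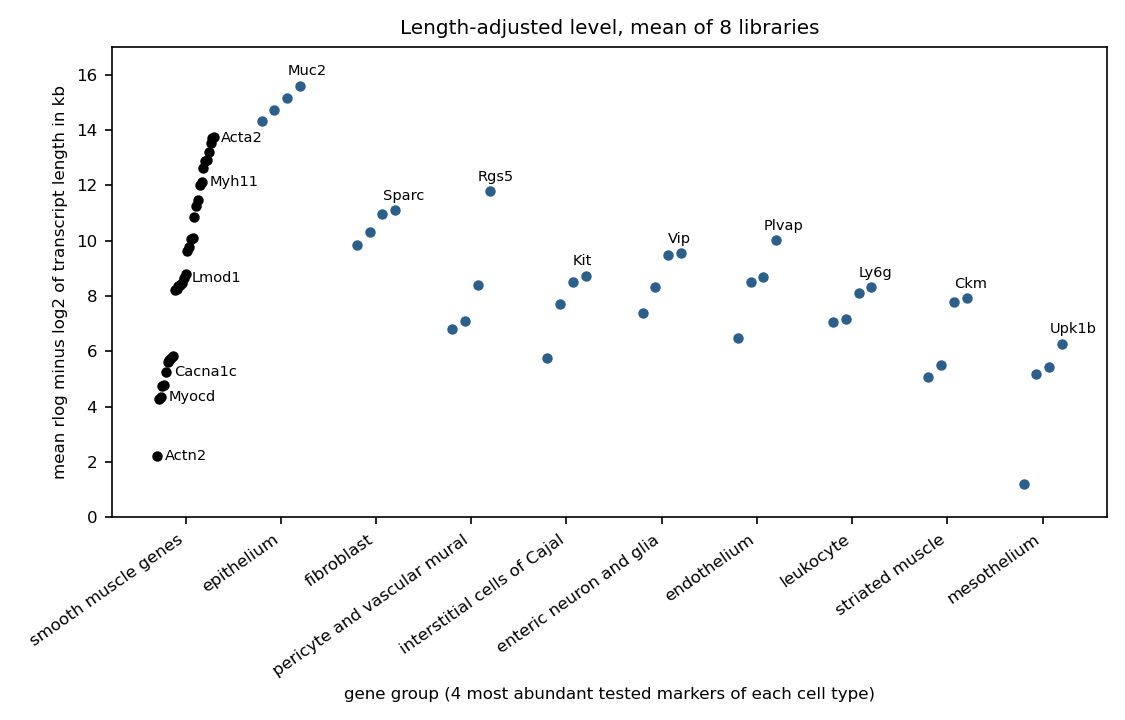
Mean rlog over 8 libraries minus log2 of the longest transcript in kilobases (vertical axis) for the 33 smooth muscle genes and for the 4 most abundant tested markers of each of 9 cell types (horizontal axis), 1 point per gene. Acta2 at 13.73 stands below the 4 epithelial markers, which run from Epcam at 14.32 to Muc2 at 15.60, and Actn2 is the lowest smooth muscle gene at 2.22.

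None of the 33 genes passed the test of Arg1 ko against wild type (limma, smallest adjusted p = 0.522), and 0% of all 16380 genes did. At an unadjusted p under 0.05 there were 2 of 33, against 9.1% of all tested genes; both were higher in Arg1 ko, where 4.73% of all tested genes were higher and 4.37% lower at that level. In no gene did the 4 ko values lie wholly above or wholly below the 4 wild-type values, against 2.36% and 1.67% of all tested genes. The difference was positive in 24 genes and negative in 9, with a median of 0.088 for Arg1 ko minus wild type; over all tested genes 51.2% were positive and the median was 0.0064. Without wild type 1, 17 of 33 were positive and the median was 0.0054. Without wild type 3, Ldb3 and Myocd passed (limma adjusted p = 0.0376 and 0.0382), 2 of 33 where 6.18% of all genes did. In both of these genes wild type 3 was the wild-type library nearest to the ko values, so leaving it out enlarges the difference by construction. Single libraries weighed on most differences: leaving out 1 of the 8 turned the sign or moved the value by over 1.5 times at least once in 29 of 33 genes, and in none of the 8 fits for Hhip, Ldb3, Lmod1 and Smtn. Such moves came in 20 genes without wild type 1, 13 without wild type 2, 18 without the library labelled wild type 3 and 17 without wild type 4, and in 4 to 9 genes without a ko library. The rule is relative to the difference itself, so differences near 0, such as that of Cnn1 (0.029), meet it easily. The share of all tested genes that meet it was not computed.

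**Figure D2:**
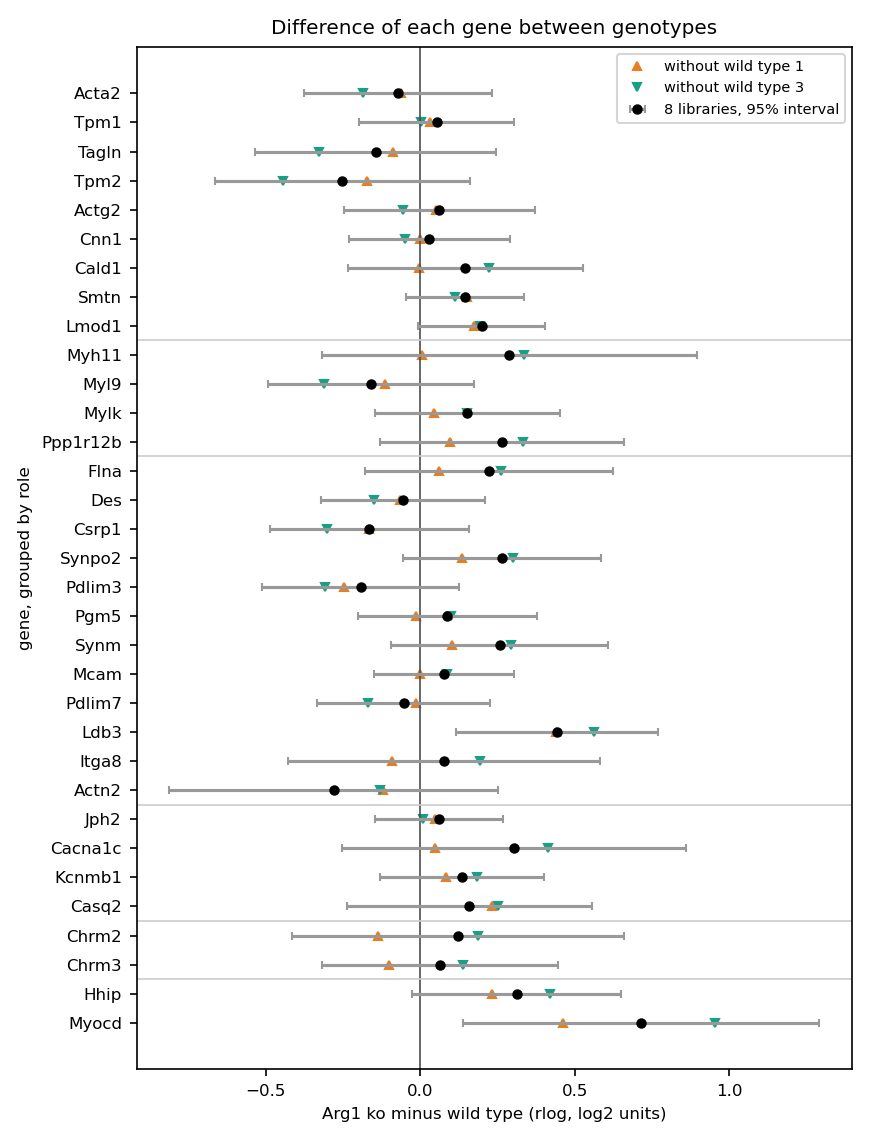
Difference of each gene between Arg1 ko and wild type (horizontal axis, rlog units) with its 95% limma interval, genes grouped by role down the page; triangles give the difference without wild type 1 or without wild type 3. All other intervals span 0: Ldb3 (0.44) and Myocd (0.71) are the 2 whose interval does not.

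None of the 9 thin filament genes passed the test, and their differences lay between -0.25 and 0.20. Acta2 (chromosome 19, 34241090 to 34255590), the vascular and visceral smooth muscle actin, had rlog values of 14.61, 14.71, 14.71 and 14.84 in Arg1 ko 1 to 4, against 14.82, 14.97, 14.45 and 14.92 in wild type 1 to 4. All 4 ko values lay inside the wild-type range, whose ends were the library labelled wild type 3 and wild type 2. For Acta2 this gave -0.072, with a standard error of 0.14 from limma and a 95% interval of -0.38 to 0.23. It became -0.19 without wild type 3 and -0.012 without wild type 2, and its sign turned after quantile normalisation (0.0017). Actg2, the actin typical of gut muscle, gave 13.63, 13.50, 13.63 and 13.79 in Arg1 ko, against 13.54, 13.72, 13.22 and 13.81 in wild type. Its difference was 0.062 (95% interval -0.25 to 0.37), and -0.055 without wild type 3. Cnn1, or calponin, which damps the myosin motor on actin, gave 12.82, 12.65, 12.71 and 12.84 in Arg1 ko, against 12.63, 12.94, 12.49 and 12.83 in wild type. At 0.029 it had the difference nearest to 0 of the 33 genes, and the sign turned without wild type 3 (-0.049) and when library medians were aligned (-0.00037).

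Tagln (chromosome 9, 45929619 to 45936058), an actin-bundling protein, gave 14.12, 14.07, 14.16 and 14.24 in Arg1 ko, against 14.46, 14.59, 13.74 and 14.37 in wild type. Wild type 1, 2 and 4 lay above every ko library and the library labelled wild type 3 lay below them all, so the difference of -0.14 became -0.33 without wild type 3. Tpm2, the beta tropomyosin that lies along the actin groove, showed the same order, with 13.85, 13.84, 13.91 and 13.87 in Arg1 ko, against 14.37, 14.50, 13.55 and 14.07 in wild type. The ko libraries of Tpm2 were within 0.0689 of each other, while the wild-type libraries spanned 0.948. Its difference of -0.25 was the most negative among thin filament genes and became -0.44 without wild type 3. Tpm1, the other tropomyosin, averaged 14.47 ± 0.077 in Arg1 ko and 14.42 ± 0.15 in wild type (SD, n = 4 each), and its difference of 0.052 was 0.0030 without wild type 3. Cald1, caldesmon, which blocks myosin binding to actin, averaged 12.42 ± 0.13 in Arg1 ko and 12.27 ± 0.38 in wild type (SD, n = 4 each), with a difference of 0.15 that was -0.0039 when wild type 1 was left out and 0.22 when wild type 3 was.

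Lmod1 and Smtn stood on the positive side. Lmod1, leiomodin, which nucleates actin filaments, gave 10.75, 10.81, 10.62 and 10.73 in Arg1 ko, against 10.46, 10.69, 10.52 and 10.45 in wild type. Here 3 ko libraries lay above every wild-type library and Arg1 ko 3 lay below wild type 2, for a difference of 0.20 (limma unadjusted p = 0.058, adjusted p = 0.522). Smtn, smoothelin, found in contractile smooth muscle, gave 11.96, 11.88, 11.84 and 11.93 in Arg1 ko, against 11.78, 11.87, 11.65 and 11.73 in wild type. Again 3 ko libraries exceeded all wild-type libraries, with a difference of 0.14 that was larger than the wild-type SD of 0.091 and did not pass the test (limma adjusted p = 0.536). Of the 9 thin filament genes, 6 had a positive and 3 a negative difference, with a median of 0.052; after quantile normalisation the negative ones Acta2 and Tagln had a positive sign.

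**Figure D3:**
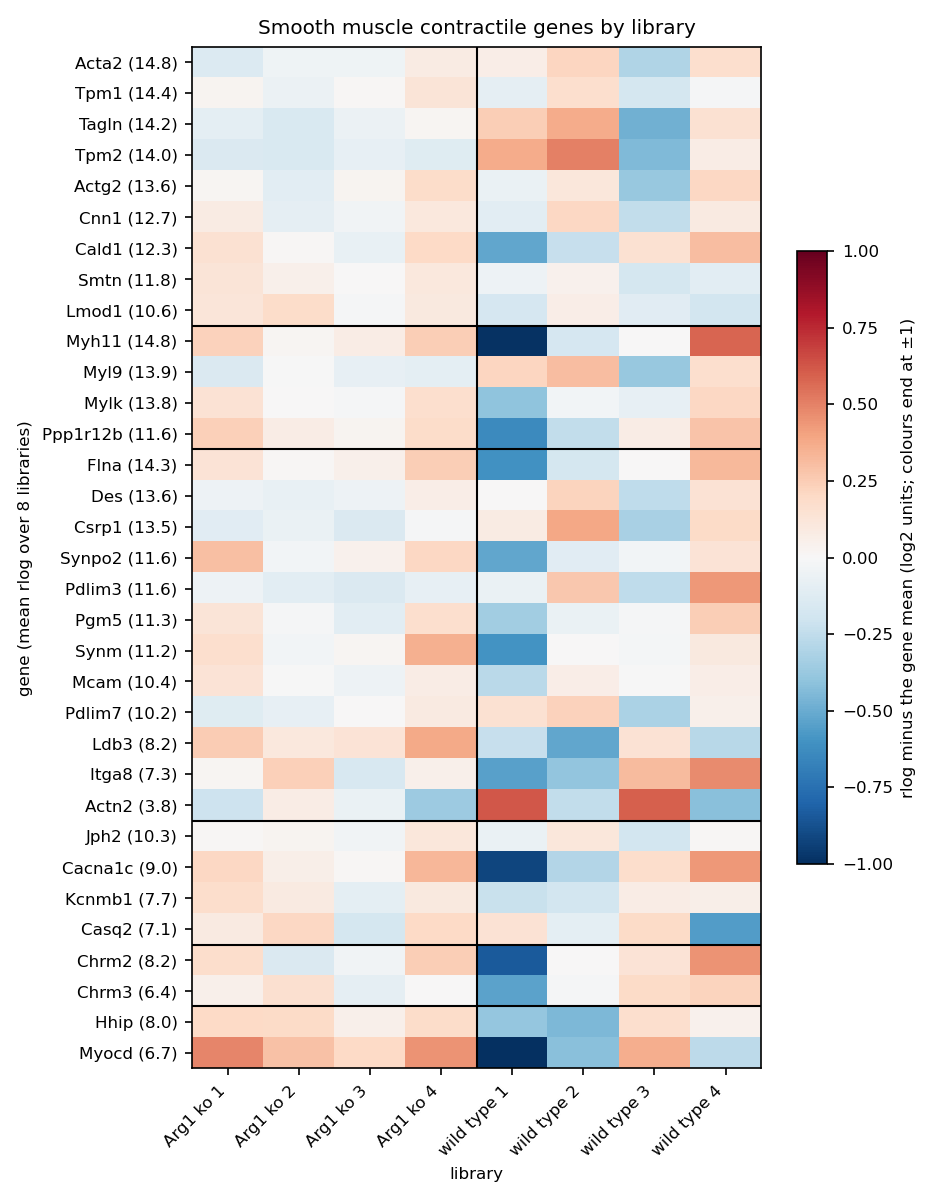
Deviation of each gene (rows, mean rlog in brackets, lines divide roles) from its own mean in each library (columns, Arg1 ko left of wild type), in rlog units, red above and blue below. The 4 ko columns are mostly pale, wild type 1 is blue for Myh11, Cacna1c, Chrm2 and Myocd, and wild type 3 is blue for Tagln, Tpm2 and Myl9.

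For the motor protein, the range within wild type exceeded the difference between genotypes. Myh11 (chromosome 16, 14194535 to 14291372), the smooth muscle myosin heavy chain, gave 15.06, 14.85, 14.90 and 15.07 in Arg1 ko, against 13.83, 14.66, 14.83 and 15.41 in wild type. Wild type 1 was the lowest and wild type 4 the highest of the 8 libraries, 1.57 apart, while the ko libraries lay between them within 0.225. The difference of 0.29 (standard error 0.27) became 0.0054 without wild type 1 and 0.53 without wild type 4. Myl9, the regulatory light chain that Mylk phosphorylates, gave 13.77, 13.91, 13.83 and 13.82 in Arg1 ko, against 14.13, 14.22, 13.54 and 14.08 in wild type. This is the order seen in Tagln and Tpm2, with wild type 3 lowest and wild type 2 highest, and the difference of -0.16 became -0.31 without wild type 3. After quantile normalisation it was positive (0.036). Mylk averaged 13.88 ± 0.092 in Arg1 ko and 13.73 ± 0.25 in wild type (SD, n = 4 each), a difference of 0.15 that became -0.010 after a correction for transcript length. Ppp1r12b, the phosphatase targeting subunit, averaged 11.76 ± 0.099 in Arg1 ko and 11.49 ± 0.40 in wild type (SD, n = 4 each), and its difference of 0.26 became 0.095 without wild type 1.

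Among the genes of intermediate filaments, dense bodies and adhesion, 7 of 12 had a positive and 5 a negative difference. Des, desmin, the intermediate filament of muscle, gave 13.55, 13.52, 13.55 and 13.67 in Arg1 ko, against 13.60, 13.82, 13.35 and 13.74 in wild type. Its ko values lay inside the wild-type range, and the difference of -0.057 (95% interval -0.32 to 0.21) became -0.15 without wild type 3 and turned positive after quantile normalisation (0.12). Synm, synemin, which links desmin filaments to adhesion sites, gave 11.40, 11.21, 11.26 and 11.59 in Arg1 ko, against 10.64, 11.24, 11.22 and 11.33 in wild type. Wild type 1 stood apart below the others, and the difference of 0.26 became 0.10 without it. Synpo2, an actin-bundling protein of dense bodies and Z-discs, gave 11.90, 11.58, 11.64 and 11.81 in Arg1 ko, against 11.08, 11.48, 11.57 and 11.74 in wild type. Its lowest library was again wild type 1, with 2 ko libraries above all wild-type ones, and its difference was 0.26 (0.13 without wild type 1).

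On the negative side of this group, Pdlim3, a PDZ and LIM protein that binds alpha-actinin, gave 11.54, 11.48, 11.44 and 11.51 in Arg1 ko, against 11.53, 11.86, 11.33 and 12.03 in wild type. The 4 ko values lay within 0.0976 and inside the wild-type range, with a difference of -0.19 that became -0.31 without wild type 3 and -0.080 without wild type 4. Csrp1, a LIM protein of smooth muscle, gave 13.39, 13.44, 13.36 and 13.50 in Arg1 ko, against 13.59, 13.89, 13.18 and 13.70 in wild type. Wild type 1, 2 and 4 exceeded every ko library and wild type 3 was below them all; the difference was -0.16, and -0.30 without wild type 3. Pdlim7, a scaffold of the same family as Pdlim3, gave 10.07, 10.12, 10.20 and 10.28 in Arg1 ko, against 10.34, 10.43, 9.87 and 10.24 in wild type. Its difference was -0.054, with wild type 3 once more the lowest library, and -0.17 without that library. Flna, filamin A, a cross-linker of actin that non-muscle cells make too, differed by 0.22 (0.059 without wild type 1), Pgm5, a component of muscle adhesion sites, by 0.088, the integrin chain Itga8 by 0.076 and the adhesion molecule Mcam by 0.076. The last 3 of these had a negative difference without wild type 1, at -0.013, -0.093 and -0.0018; without wild type 3, Itga8 was at 0.19.

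Ldb3 (chromosome 14, 34526603 to 34588682), a PDZ and LIM protein known from the striated Z-disc, had the smallest p of the 33 genes. It gave 8.43, 8.28, 8.31 and 8.55 in Arg1 ko, against 7.95, 7.65, 8.31 and 7.89 in wild type. All ko libraries exceeded wild type 1, 2 and 4, while the library labelled wild type 3 lay between the ko values. For Ldb3 the difference came to 0.44 with a standard error of 0.15 (limma unadjusted p = 0.013, adjusted p = 0.522), and 0.34 after the correction for transcript length. Actn2, which belongs to the same structure, gave 3.60, 3.88, 3.74 and 3.44 in Arg1 ko, against 4.43, 3.56, 4.40 and 3.39 in wild type. Its mean was close to the level of 3 required for testing, with wild type 1 and 3 above every ko library and wild type 4 below them all, and its difference of -0.28 became -0.12 when wild type 1 was left out and -0.13 when the library labelled wild type 3 was.

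The 4 genes of calcium handling all had positive differences, none past the test. Cacna1c, the pore of the L-type calcium channel, differed by 0.30, with ko values between 8.98 and 9.30, and wild-type values between 8.05 (wild type 1) and 9.40 (wild type 4). Without wild type 1 its difference was 0.048. Casq2, calsequestrin, a calcium buffer of the internal store, averaged 7.18 ± 0.18 in Arg1 ko and 7.02 ± 0.34 in wild type (SD, n = 4 each), with wild type 4 lowest. Kcnmb1, the smooth muscle subunit of the calcium-gated potassium channel, averaged 7.76 ± 0.11 in Arg1 ko and 7.62 ± 0.16 in wild type, and Jph2, which holds the store close to the surface membrane, 10.30 ± 0.063 in Arg1 ko and 10.24 ± 0.13 in wild type (SD, n = 4 each). Their differences were 0.16 for Casq2, 0.14 for Kcnmb1 and 0.06 for Jph2. Each moved by over 1.5 times when a library was left out: Casq2 was at 0.00025 without wild type 4 and 0.25 without wild type 3, Kcnmb1 at 0.085 without wild type 1, and Jph2 at 0.0094 without wild type 3. The muscarinic receptors Chrm2 and Chrm3 differed by 0.12 and 0.064 and turned negative without wild type 1 (-0.14 and -0.10); without wild type 3 they were 0.19 and 0.14. Chrm2 ranged from 8.05 to 8.44 in Arg1 ko and from 7.35 to 8.64 in wild type, again with wild type 1 lowest and wild type 4 highest.

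The largest difference of the 33 was that of the regulator. Myocd (chromosome 11, 65176561 to 65269989), the cofactor of serum response factor in smooth muscle, gave 7.19, 6.99, 6.90 and 7.15 in Arg1 ko, against 5.59, 6.28, 7.06 and 6.44 in wild type. The ko libraries exceeded wild type 1, 2 and 4, and the library labelled wild type 3 lay among them. For Myocd the difference came to 0.71 with a standard error of 0.26 and a 95% interval of 0.14 to 1.29 (limma unadjusted p = 0.0201, adjusted p = 0.522); without wild type 1 it was 0.46. Hhip, which binds and restrains hedgehog ligands, gave 8.16, 8.15, 8.01 and 8.15 in Arg1 ko, against 7.57, 7.52, 8.13 and 8.00 in wild type. Here 3 ko libraries exceeded every wild-type one, Arg1 ko 3 lay below wild type 3, and the difference was 0.31 (limma unadjusted p = 0.0683, adjusted p = 0.522).

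Most of the spread between libraries lay within the wild type. The SD was larger in wild type than in Arg1 ko in all 33, where 90.9% of all tested genes had the larger SD there, and at least 2 times larger in 24, against 65.8% of all tested genes. The median SD of the members was 0.0989 in Arg1 ko and 0.308 in wild type, next to 0.096 and 0.258 over all tested genes. The lowest of the 8 libraries was wild type 1 for 15 genes and the library labelled wild type 3 for 13, while over all tested genes these libraries were lowest in 28.8% and 14.5%. No ko library was the lowest for any of the 33, although ko libraries were lowest in 23.8% of all tested genes. The highest library was wild type 4 for 12 genes and wild type 2 for 10, next to 24.7% and 9.91% of all tested genes. All 4 ko values lay inside the wild-type range in 23 genes, against 52.3% of all tested genes.

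Transcript length moved with the values of these genes in several libraries. The longest transcripts of the 33 genes ran from 1128 to 13162 bases with a median of 3948. The 16 genes above that median averaged -0.57 from their own means in wild type 1, with all 16 below, and the 17 others averaged 0.043. Over all tested genes the same length classes averaged -0.25 and 0.14 in wild type 1. In the library labelled wild type 3 the long members averaged 0.093 and the short members -0.18, where the same classes of all tested genes averaged 0.12 and -0.049. Across the 33 genes, which share their library and so are not independent, Spearman's rho between length and deviation was 0.76 in Arg1 ko 1, -0.81 in wild type 1 and -0.73 in wild type 2; over the 16367 tested genes with a length it was 0.50, -0.62 and -0.52 in these libraries. A correction for length, chosen after the data had been seen, left 21 of 33 differences positive with a median of 0.062 and no call. After it the median SD of the members was 0.0887 in Arg1 ko and 0.224 in wild type, still larger in wild type for 32 of 33 genes. Wild type 1 was then the lowest library for 14 genes and wild type 3 for 13, and no ko library was the lowest. The mean deviation of the members went from -0.25 to -0.16 in wild type 1 and from -0.048 to -0.10 in wild type 3. What length has to do with these libraries was not tested.

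**Figure D4:**
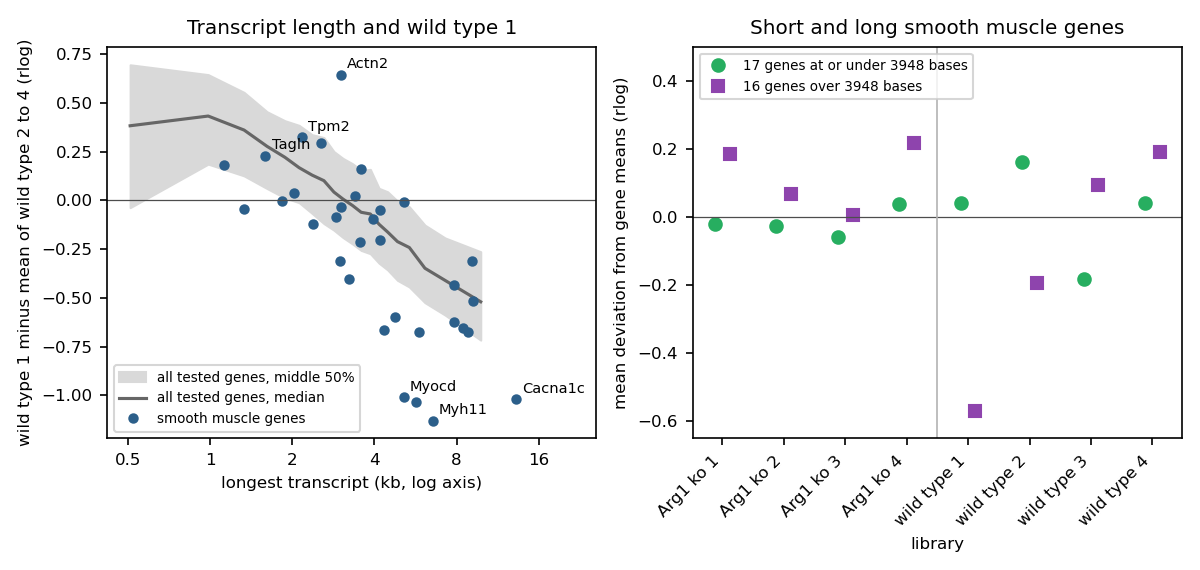
Left, wild type 1 minus the mean of wild type 2 to 4 (rlog) against the longest transcript (kilobases, log axis) for the smooth muscle genes (points) and all tested genes (line, median; band, middle 50%). Right, mean deviation of the 17 shorter and the 16 longer smooth muscle genes in each library, with the longer genes at -0.57 in wild type 1.

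Some members are also genes of striated muscle, so its markers were read beside them. Of 17 striated markers 10 were tested, with 1 positive and 9 negative differences (median -0.28), and Myh6 was listed at 0 in every library. Their mean deviation was -0.23 to -0.074 in the ko libraries, 0.91 in the library labelled wild type 3 and -0.17 to -0.083 in the other wild-type libraries; the log2 of their summed level ran from 10.15 to 10.26 in Arg1 ko and from 10.32 to 10.59 in wild type. Tnnt3, the fast skeletal troponin T, gave 3.27, 3.24, 3.44 and 3.29 in Arg1 ko, against 3.13, 3.32, 6.17 and 3.61 in wild type. Myh4, a fast skeletal myosin, gave 2.88, 2.56, 2.97 and 2.59 in Arg1 ko, against 2.63, 2.70, 6.05 and 2.59 in wild type. Both were picked after their values were seen, and both stood out in wild type 3 alone. Actc1, also picked after its values were seen, had the 1 positive difference (0.50, limma adjusted p = 0.522). Its 4 ko values of 4.29 to 4.69 lay above the 4 wild-type values of 3.81 to 4.13, as in 2.36% of all tested genes. Wild type 3 was the highest library for 7 of the 10. Among the 4 most abundant markers it was highest for Acta1, the skeletal actin, and Myl1, a fast skeletal light chain, and not for Tnnt2, the cardiac troponin T, or Ckm, the muscle creatine kinase. Ckm stood at 9.29 ± 0.044 in Arg1 ko and 9.47 ± 0.18 in wild type and Acta1 at 8.25 ± 0.15 in Arg1 ko and 8.35 ± 0.27 in wild type (SD, n = 4 each). Ldb3, Casq2 and Actn2 were at 8.31, 7.29 and 4.40 in wild type 3, each above the wild-type mean of 7.95, 7.02 and 3.95. However, Ldb3 was higher in Arg1 ko 1 and 4 (8.43 and 8.55), Casq2 in Arg1 ko 2 and 4 (7.30 in each), and Actn2 in wild type 1 (4.43). The wild-type mean of Casq2 included 7.24 in wild type 1 and 6.54 in wild type 4. Des, Jph2 and Pdlim3, which striated muscle makes too, were at 13.35, 10.09 and 11.33 in wild type 3, their lowest library, below the wild-type means of 13.63, 10.24 and 11.69. The part of striated muscle RNA in these values was not tested.

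**Figure D5:**
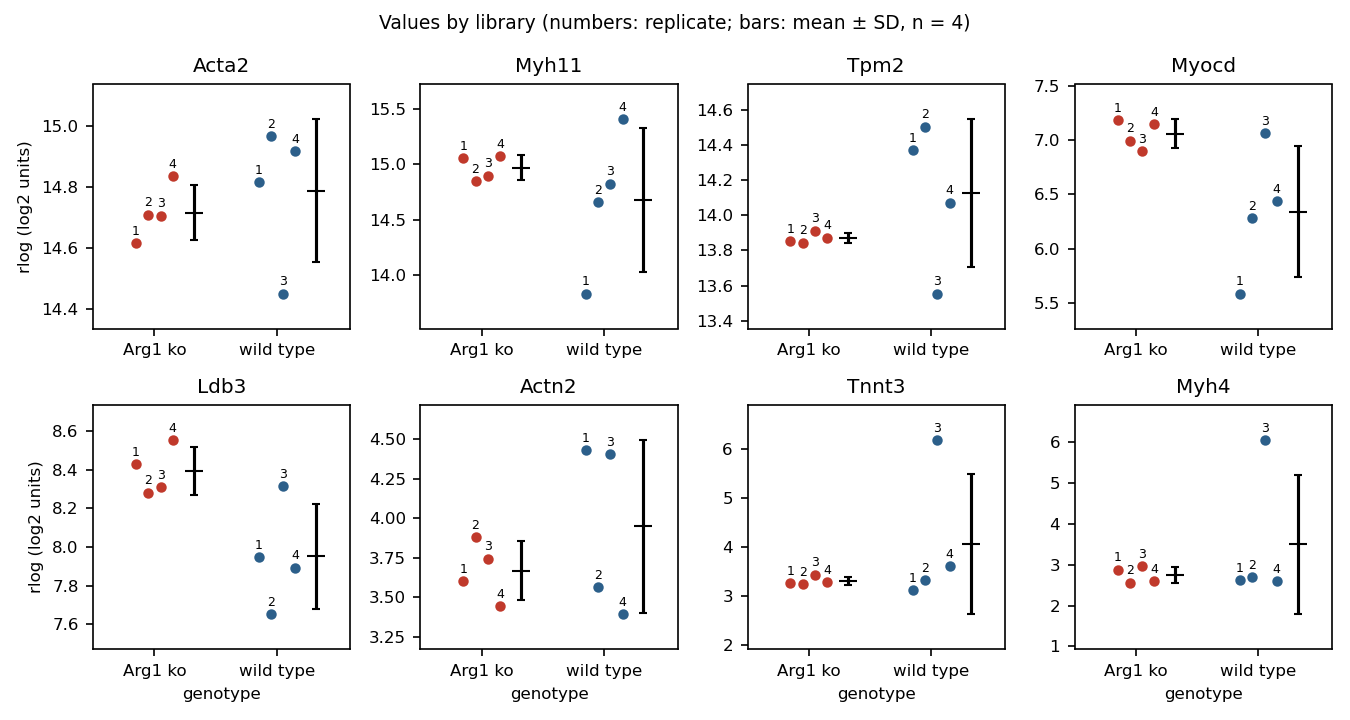
Rlog values by library (vertical axes) for 6 smooth muscle genes and the skeletal muscle genes Tnnt3 and Myh4, Arg1 ko left of wild type, with replicate numbers beside the points and bars for mean ± SD (n = 4). Wild type 3 is at 6.17 for Tnnt3 and 6.05 for Myh4, while the other 7 libraries lie under 4.

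The rest of the contractile pathway was read on 5 lists of other muscle genes. Of their 112 tested genes 72 had a positive and 40 a negative difference, none passed over all genes, and the median was 0.055 (0.0048 without wild type 1). At an unadjusted p under 0.05, 6 (5.36%) were higher and 1 (0.893%) lower, next to 4.73% and 4.37% of all tested genes. The genes named from each list are among its 4 with the smallest p and need not have its largest differences. Transcription regulators had 10 of 16 positive, with Mrtfa, a partner of serum response factor that senses free actin, at 9.47 ± 0.058 in Arg1 ko and 9.20 ± 0.20 in wild type (SD, n = 4 each). Contraction signalling had 17 of 26 positive, with Gnaq (0.25), the G protein subunit behind Chrm3, and Pde5a (0.20), which breaks down cyclic GMP. Calcium stores and channels had 12 of 18 positive, with Srl (0.38), a store protein, Atp2b4 (0.48), a calcium pump of the surface membrane, and Trpc4 (-0.36), a cation channel opened by muscarinic receptors in gut muscle. Receptors had 10 of 14 positive, with the prostaglandin receptor Ptger3 (0.32) and the endothelin receptor Ednra (0.31). Actin-binding and adhesion genes had 23 of 39 positive, with Tln1 (0.35), talin, which couples integrins to actin, Nebl (0.41), Sorbs2 (0.30) and Lpp (0.50). Each of these named genes had an adjusted p of at least 0.522 (limma).

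Marker RNA of cells that neighbour muscle in the gut wall was also detected. The log2 of the summed level of the 33 smooth muscle genes was 17.82 to 17.97 in Arg1 ko and 17.67 to 18.08 in wild type. For 12 epithelial markers it was 18.62 to 18.72 in Arg1 ko and 18.62 to 18.81 in wild type. These sums are not divided by transcript length and depend on the genes listed. They can be compared between libraries but do not give relative amounts of cell types. Interstitial cells of Cajal, the pacemakers of gut muscle, had all 7 markers tested and 5 of 7 positive (median 0.12; summed level 12.32 to 12.58 in Arg1 ko and 11.97 to 12.59 in wild type), with Kit at 11.18 ± 0.19 in Arg1 ko and 11.06 ± 0.32 in wild type (SD, n = 4 each). Enteric neuron and glia markers had 13 of 16 negative (median -0.16; summed level 12.48 to 12.69 in Arg1 ko and 12.62 to 12.98 in wild type), with Uchl1, a neuronal ubiquitin hydrolase, at 9.46 ± 0.088 in Arg1 ko and 9.98 ± 0.38 in wild type (SD, n = 4 each). Pericyte and mural markers had 6 of 9 positive (median 0.024; summed level 13.85 to 14.07 in Arg1 ko and 13.99 to 14.51 in wild type), with differences of -0.30 for Rgs5, -0.40 for Kcnj8, a potassium channel subunit of mural cells, 0.29 for its partner subunit Abcc9, and 0.10 for the growth factor receptor Pdgfrb. Fibroblast markers had 16 of 18 positive (median 0.21; summed level 15.70 to 15.82 in Arg1 ko and 15.39 to 15.67 in wild type). Differences were 0.70 for Col3a1, 0.30 for Postn, 0.22 for Sparc and -0.11 for Dcn. Every ko value exceeded every wild-type value in Col3a1, Postn and Sparc, as in 2.36% of all tested genes. At an unadjusted limma p under 0.05, 5 of the 18 were higher in Arg1 ko, against 4.73% of all tested genes. Endothelial markers had 4 of 10 positive (median -0.088; summed level 12.66 to 12.81 in Arg1 ko and 12.67 to 12.99 in wild type), mesothelial markers 2 of 7 (median -0.23; summed level 8.88 to 9.46 in Arg1 ko and 9.33 to 9.55 in wild type), epithelial markers 4 of 12 (median -0.091) and leukocyte markers 5 of 10 (median -0.0065; summed level 11.28 to 11.46 in Arg1 ko and 11.24 to 11.58 in wild type). Apart from Myh6, no listed marker of these cells was at 0 in all libraries, and no marker passed the test over all genes. The part of cell composition in the values of the smooth muscle genes was not tested.

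Which reads could be mistaken for another gene was read from the annotation. Of all words of 50 bases in the longest transcript, at most 0.4% (Myh11) occurred in transcripts of another gene, and for Acta2 the share was 0.352%, although the actins encode nearly the same protein. Tagln is the exception in position: 67.9% of its exonic bases overlap exons on the opposite strand, those of Pcsk7 and Gm48529, and for Smtn the share was 16.3%. The library kit keeps strand, but the sources used here do not give the strand setting of the counting, so the Tagln value may hold reads of its neighbour or lack reads of its own. Gene totals also do not separate the smooth muscle forms of Cald1, Tpm1 and Mylk from those that other cells make.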

How the data were processed

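Messenger RNA of 8 colon libraries, 4 Arg1 ko and 4 wild type, was sequenced from 1000 ng of total RNA with a stranded kit, per the labels' protocols. The authors deposited 1 table of regularised log2 (rlog) values, 1 column per library, matched to samples by the column name in the labels. The build was GRCm38 and the software comprised DESeq2 1.16.1, featureCounts from Subread 1.5.3, STAR 2.5.2b and BWA 0.7.14-r1136, per the submitters' processing notes; the sources used here give neither order nor options. Rlog shrinkage makes differences of weak genes too small, and counts cannot be recovered, so depth and counting error are unknown.

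Ensembl IDs were named from GENCODE vM21 on GRCm38 (53274 of 53465 had a symbol), which also gave 1-based coordinates and transcript lengths. Non-constant genes averaging 3 or more (16380) were fitted with limma 3.58.1 in R 4.3.3 (moderated, prior variance following the mean, a genotype term, two-sided, Benjamini-Hochberg over all genes, threshold 0.05). Lists are described by counts and medians. The 33 genes, the lists and the rules were chosen with earlier results of these data known. The genes given by library are 7 defining markers and up to 6 more in each direction by smallest p; of other muscle lists up to 4 by smallest p are named, of cell types up to 4 by highest mean. Replicates are numbered in order of accession and pair nothing; the labels do not say more than that they are separate samples, so a p-value reflects only how these samples vary, which may be partly technical. No library was averaged or left out of the fit over 8. The fit was tested on simulated data whose noise was independent between genes and had the same SD in both genotypes. That test does not cover the larger wild-type spread or the patterns shared between genes seen here. Alternatives changed the filter, scaling, moderation, threshold, the libraries used and, added after seeing the data, corrected for transcript length with a natural spline of 5 degrees of freedom.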

Additional observations from a re-analysis of the deposited data

Results flagged for a closer look

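Within each genotype, the gap of the highest or lowest library to its nearest neighbour was compared with the whole range of the 4 libraries. Of 210 groups checked, 12 had a library standing apart, and chance gives about 1 in 20 of such groups. Among the 33 smooth muscle genes 2 of 66 did so: Synm in wild type 1 (10.64, others 11.22 to 11.33) and Hhip in Arg1 ko 3 (8.01, others 8.15 to 8.16). Of the other named muscle genes it was Srl in Arg1 ko 2 (7.24, others 7.53 to 7.58), Ptger3 in Arg1 ko 4 (7.97, others 7.57 to 7.63), Ednra in wild type 3 (8.39, others 7.80 to 7.87) and Tln1 in Arg1 ko 4 (11.99, others 11.87 to 11.89). Of the markers of other cells it was Gja1 in Arg1 ko 1 (10.68, others 10.49 to 10.52), Prph in wild type 3 (8.99, others 9.44 to 9.51) and Gpm6a in Arg1 ko 2 (6.56, others 6.82 to 6.85). The deleted gene itself was Arg1 in wild type 3 (5.02, others 5.57 to 5.59). Of the list means it was the muscle transcription regulators in Arg1 ko 4 (0.057, others 0.012 to 0.016) and the striated muscle markers in wild type 3 (0.91, others -0.17 to -0.083). Wild type 3 is the library that stood apart for Arg1, Ednra, Prph and the striated muscle list.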

How the results depend on the processing

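Over 16 alternatives the differences of 19 of the 33 genes kept their sign, and 504 of 527 values kept both sign and side of the threshold. No member passed under any alternative but 1: without wild type 3, 2 members (Ldb3 and Myocd) and 1012 of all genes passed; over the 8 fits that leave out a library these counts ran from 0 to 2 and from 0 to 1012. The adjusted p (limma) of Ldb3 ranged over the alternatives from 0.0376 to 0.819 and that of Myocd from 0.0382 to 0.819. Signs turned when library medians were aligned for Cnn1 (-0.00037), with quantile normalisation for Acta2 (0.0017), Des (0.12), Myl9 (0.036) and Tagln (0.050), which brought the positive differences to 28 of 33, and after the length correction for Chrm3 (-0.0010), Itga8 (-0.043) and Mylk (-0.010); the cause was not tested. Leaving out single libraries gave both signs for Cnn1 (-0.049 to 0.10), Cald1 (-0.0039 to 0.27), Chrm2 (-0.14 to 0.29), Chrm3 (-0.10 to 0.15), Itga8 (-0.093 to 0.25), Mcam (-0.0018 to 0.11), Pgm5 (-0.013 to 0.18), Des (-0.15 to 0.0067), Pdlim7 (-0.17 to 0.014) and Actg2 (-0.055 to 0.14). The median over the members ran from 0.0054 to 0.15 in those fits. No paired analysis was possible because the labels give the genotypes no shared replicate numbers.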
